A study of Mus musculus with 6 samples.

Results

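Ahnak, its paralogs Ahnak2 and periaxin, and the proteins that bind it were followed across newborn mouse kidney and ureter. The genes were chosen by name from the table of 24532 genes, and 6 of the 7 had a row, namely Ahnak (gene number 66395), Prx (19153), S100a10 (20194), Anxa2 (12306), Dysf (26903) and Myof (226101). Ahnak2 had no row under its symbol or gene number and was not analysed here. Bulk RNA-seq at postnatal day 1 (PN1) gave 6 libraries, namely 2 wild type (WT) kidneys, 2 Ahnak knockout (KO) kidneys, 1 WT ureter and 1 Ahnak KO ureter. The KO was made by disrupting exon 5 of Ahnak, and RNA came from 2 to 4 kidneys or ureters, with no strain and no number of mice per library stated. The labels do not say that replicates came from separate litters, so p-values measure the spread between these libraries. In the column headers, each ureter library carries the same number as kidney 2 of its genotype. Whether they share a source is not stated, and the tissue test treated all 6 libraries as independent. The study asked what is lost in the developing urinary tract without Ahnak, and the comparisons here ask where its relatives and partners were expressed and whether their RNA differed with genotype.

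AHNAK is a giant scaffold protein that sits at the plasma membrane and in the cytoplasm. Its carboxyl-terminal part binds the beta subunit of L-type calcium channels and the complex of annexin A2 with S100A10, which anchors it to the membrane. Dysferlin and myoferlin, encoded by Dysf and Myof, are large membrane proteins of the ferlin family that act in membrane repair and vesicle fusion, and both can bind AHNAK. Periaxin, encoded by Prx, links the dystroglycan complex to the cytoskeleton in myelinating Schwann cells and shares an amino-terminal domain with AHNAK and AHNAK2.

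The gene models of these members, from the GENCODE annotation of GRCm38, lie on 6 chromosomes, with Ahnak and Myof both on chromosome 19. Ahnak spans 8989284 to 9076914 on the plus strand and Myof spans 37899036 to 38043577 on the minus strand. Prx lies on chromosome 7 (27499324 to 27520214), S100a10 on chromosome 3 (93555080 to 93564643), Anxa2 on chromosome 9 (69453620 to 69491795) and Dysf on chromosome 6 (84008590 to 84211060), all on the plus strand. Ahnak2 is annotated on chromosome 12 (112772194 to 112802657, minus strand). Stretches of 50 bases in the longest transcripts of Ahnak, S100a10 and Myof occurred in no transcript of another gene (0.0% shared). In Prx, Anxa2 and Dysf, 2.49%, 2.24% and 3.92% of such stretches also occurred on either strand of antisense genes that overlap them (Gm15541 in Prx, Gm16144 in Anxa2, Gm15475 and Gm33024 in Dysf), and how the counting assigned such reads is not given in the sources used here. Within the Ahnak transcript, 21.3% of the stretches occurred more than once, since the large exon codes for repeats.

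Ahnak makes a long and several short transcripts. Of the short ones, Ahnak-201, Ahnak-204 and Ahnak-205 part from the long one after its exon 4. Ahnak-203 keeps the junction of exon 4 with exon 5 and ends 588 bases into exon 5. The end of exon 4 is shown because the KO allele was built in exon 5. The long transcript Ahnak-202 has 18100 bases, and its exon 5 (chr19:9001699-9019196) holds 17498 of them, or 96.7%. The short transcript Ahnak-201 has 830 bases and skips that exon. The last 30 bases of exon 4 (chr19:9000834-9000863) are in lower case below, and the capitals mark the first 30 bases that follow, from chr19:9001699-9001728 in the long and chr19:9037159-9037188 in the short transcript, all on the plus strand of GRCm38 and all coding.
Ahnak-202: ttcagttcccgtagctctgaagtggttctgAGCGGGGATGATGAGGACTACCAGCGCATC
Ahnak-201: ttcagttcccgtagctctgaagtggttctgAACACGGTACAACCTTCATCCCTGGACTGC
The deposited table holds a single count per gene, so reads of the long and the short transcript, or of exon 5 and the other exons, cannot be told apart in the count itself.

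**Figure D1:**
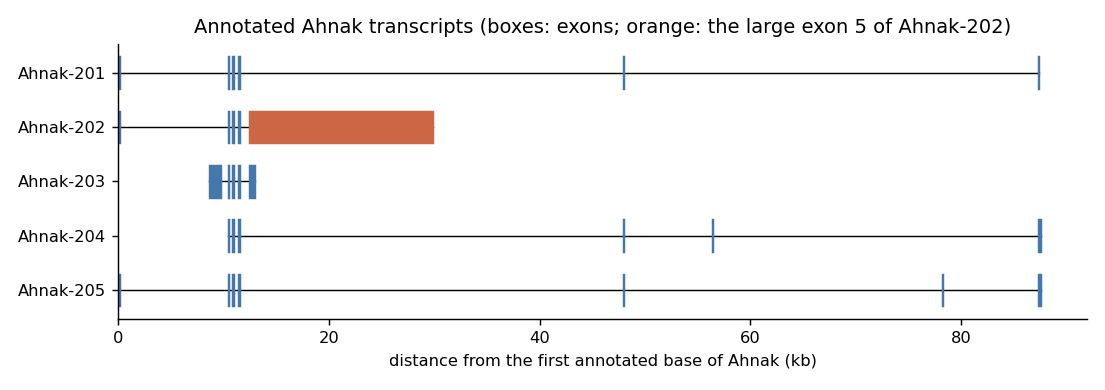
The 5 annotated transcripts of Ahnak against distance from the first annotated base of the gene in kb, with exons as boxes and introns as lines. The 17498-base exon 5 of Ahnak-202 (orange) is present whole in that transcript alone, Ahnak-203 holds 588 bases of it, and the other 3 transcripts skip it.

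The libraries held 36410246 to 66095616 counts, and 3 counts in a library stood for 0.0421 to 0.101 CPM (counts scaled to library size and by TMM factors over all 6 libraries, as for all CPM given). Most marker lists followed the labelled tissues. The summed CPM of 12 urothelium markers was 135 to 146 in kidney and 8113 and 9450 in ureter, that of 10 smooth muscle markers was 757 to 897 and 8191 to 9182, and that of 10 proximal tubule markers was 1255 to 1926 in kidney and 14.3 to 16.6 in ureter. The summed CPM of 10 collecting duct markers, of a kidney cell type, went the other way. It was 1150 to 1462 in kidney and 2227 and 3633 in ureter. Taken singly, 6 of the 10 were called lower in ureter and 3 higher (adjusted p under 0.05, edgeR), beside 23.7% and 21.4% of all genes tested. Their median log2 difference, ureter minus kidney, was -1.06. Of the proximal tubule markers, 5 had at most 3 counts in both ureter libraries. The ureter libraries carry titles with the word kidney and were placed by their source label. Some libraries stood apart. KO kidney 1 had 176348 counts of Xist and 0 of the Y chromosome genes, against 17 to 36 and 8415 to 18055 in the other 5 libraries. By these counts KO kidney 1 was female and the other 5 libraries male, and sex is not among the labels used here. The KO kidneys were thus mixed in sex and the WT kidneys were not, and no test had sex as a term. The KO ureter gave 8.06% of its counts to the ribosomal precursor Rn45s, against 0.496% to 0.632% elsewhere. Ahnak was still counted in all 3 KO libraries, so KO names these libraries by their label throughout.

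The ureter expressed far more Ahnak than the kidney. Ahnak reached 183 and 189 CPM in the WT kidneys, 139 and 130 CPM in the KO kidneys, 727 CPM in the WT ureter and 635 CPM in the KO ureter. Both ureter values lay above every kidney value, as for 28.1% of all genes (32.8% had both below). The log2 difference, ureter minus kidney, was 2.103 (standard error 0.0998, 4.30-fold, adjusted p = 3.03e-05, from the quasi-likelihood test of edgeR with Benjamini-Hochberg adjustment over 16873 genes). The difference was 3.90-fold between the WT tissues and 4.71-fold between the KO tissues. In a bulk sample, more cells of a type and more RNA per cell cannot be told apart, and this holds for each tissue difference given here.

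Among the 6 members, 4 were higher in ureter, 1 was higher in kidney and 1 did not pass the test. Over all genes tested, 21.4% were called higher in ureter and 23.7% lower, 45.0% in all, so that a call by itself is common in this comparison and only its size sets a member apart. By signed log2 difference, ureter minus kidney, Myof stood above 95.9% of all genes tested and Ahnak above 93.0%. Dysf, which was lower in ureter, stood above only 13.4%.

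Myof had the largest difference of the 6. It was counted at 73.0 and 74.6 CPM in the WT kidneys, 75.2 and 84.3 CPM in the KO kidneys, 577 CPM in the WT ureter and 730 CPM in the KO ureter. The tissues did not overlap, and the log2 difference was 3.08 (standard error 0.102, 8.47-fold, adjusted p = 1.05e-05, edgeR).

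Dysf, the closest relative of Myof here, went the other way. It was counted at 39.3 and 37.7 CPM in the WT kidneys and at 35.4 and 35.6 CPM in the KO kidneys, but at only 15.9 CPM in the WT ureter and 10.6 CPM in the KO ureter. Its log2 difference was -1.50 (standard error 0.159, 2.82-fold lower in ureter, adjusted p = 0.000645, edgeR), again with no overlap. On the scale of TPM, which divides by transcript length and scales to the library, Myof stood at 1.74 to 2.21 times Dysf in the kidney libraries, at 34.9 times in the WT ureter and at 66.2 times in the KO ureter, so the ferlin that prevailed in kidney by a small margin prevailed by a large one in ureter.

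Anxa2 and S100a10 encode the subunits of the membrane complex that AHNAK binds. Anxa2 was counted at 399 and 384 CPM in the WT kidneys, 408 and 429 CPM in the KO kidneys, 746 CPM in the WT ureter and 1134 CPM in the KO ureter. The ureter libraries lay above all kidney libraries, with a log2 difference of 1.19 (standard error 0.127, 2.28-fold, adjusted p = 0.000648, edgeR). S100a10 was counted at 200 and 159 CPM in the WT kidneys, 196 and 247 CPM in the KO kidneys, 230 CPM in the WT ureter and 474 CPM in the KO ureter. The tissues overlapped, because KO kidney 2 lay above the WT ureter, and the log2 difference of 0.74 (standard error 0.200, 1.67-fold, adjusted p = 0.0244, edgeR) was not stable. Without the KO ureter it was 0.36 with an adjusted p of 0.232, and without WT kidney 2 or KO kidney 2 the adjusted p was 0.0673 or 0.0649.

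Prx, the paralog, did not pass the test between tissues. It was counted at 19.2 and 12.6 CPM in the WT kidneys, 15.2 and 18.4 CPM in the KO kidneys, 8.70 CPM in the WT ureter and 14.5 CPM in the KO ureter. The tissues overlapped and the log2 difference was -0.53 (standard error 0.257, adjusted p = 0.139, edgeR). On TPM, however, the ureter libraries (3.24 and 4.21) lay below all kidney libraries (5.75 to 8.61), and limma on log2(FPKM + 0.1) gave -0.85 with an adjusted p of 0.0250. Schwann cell markers, the cells known for periaxin, moved the other way, with a summed level of 82.9 to 87.6 CPM in kidney and 234 and 240 CPM in ureter over 12 genes, none of them at or under 3 counts in either tissue. Their part in the Prx values was not tested.

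**Figure D2:**
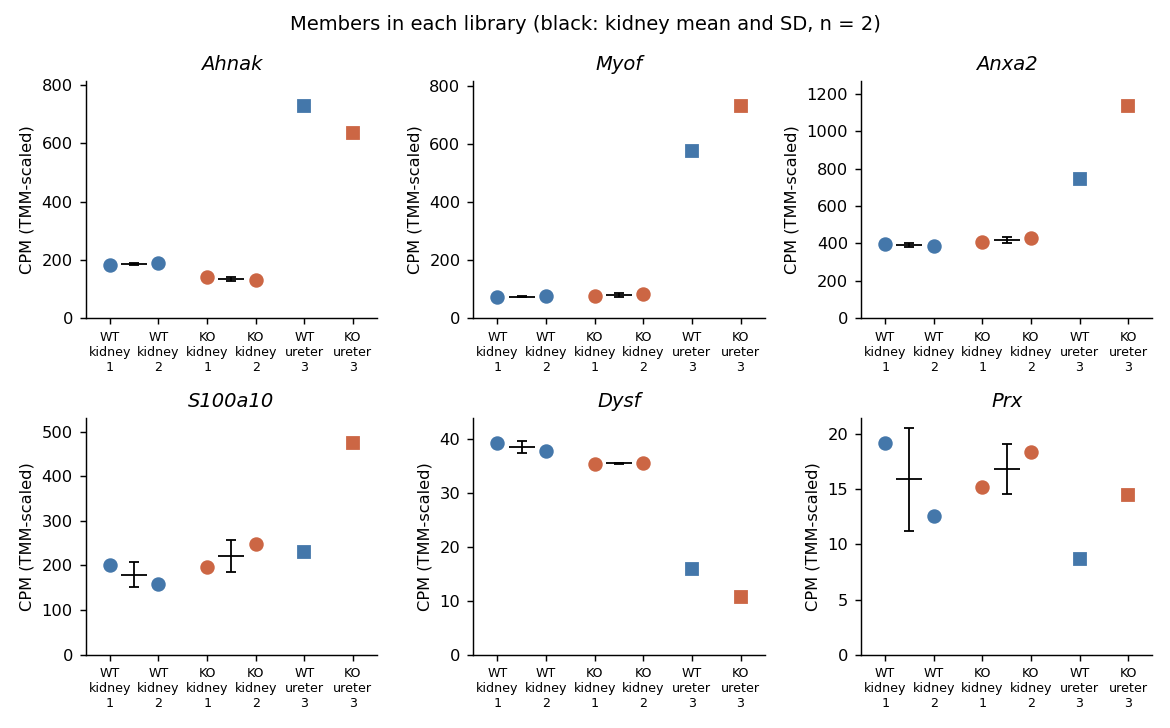
CPM (TMM-scaled) of the 6 members in each library, 1 panel per gene with its own axis from 0, circles for kidney and squares for ureter, blue for WT and orange for KO, and black bars for the mean and SD of each kidney group (n = 2). Ahnak, Myof and Anxa2 are higher in both ureter libraries than in any kidney library, Dysf is lower, and S100a10 and Prx overlap between tissues.

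Per length, Anxa2 and S100a10 were by far the most abundant members in both tissues. S100a10 held 528 to 788 TPM and Anxa2 601 to 646 TPM in kidney, and their order changed between libraries, so they did not differ beyond their spread. In ureter, Anxa2 (948 and 1263 TPM) stood above S100a10 (619 and 1116 TPM) in both libraries. The ratio of S100a10 to Anxa2 was 0.879 to 1.22 in kidney, 0.653 in the WT ureter and 0.884 in the KO ureter. Ahnak followed with 20.6 to 27.7 TPM in kidney and 77.5 and 88.0 TPM in ureter. Myof held 22.1 to 24.5 TPM in kidney and 142 and 157 TPM in ureter. Ahnak stood above Myof in both WT kidneys and below it in both KO kidneys and both ureters. Dysf (11.1 to 12.7 TPM) stood above Prx (5.75 to 8.61 TPM) in each kidney, while in ureter their order changed, with Dysf at 4.06 and Prx at 3.24 TPM in the WT and Dysf at 2.37 and Prx at 4.21 TPM in the KO library. Anxa2 exceeded Ahnak 22.7-fold to 31.1-fold in kidney and 12.2-fold and 14.3-fold in ureter, per length.

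The promoters of the 3 members with the firmest rise in ureter are shown. In each of these, both ureter libraries lay above every kidney library, a trait of 28.1% of all genes. The windows hold the 250 bases before the RefSeq start in GRCm38, on the strand of the gene. Capitals mark matches on either strand to any of the motifs searched, namely the AP-1 motif TGACTCA or its reverse TGAGTCA, the GC box GGGCGG, the TATA box TATAAA, the CCAAT box CCAAT and the TEAD motif ACATTCC. The table holds no entry for S100a10. The windows are chr19:8989034-8989283 for Ahnak (plus strand), chr9:69453433-69453682 for Anxa2 (plus strand) and chr19:38043578-38043827 for Myof (minus strand).
Ahnak: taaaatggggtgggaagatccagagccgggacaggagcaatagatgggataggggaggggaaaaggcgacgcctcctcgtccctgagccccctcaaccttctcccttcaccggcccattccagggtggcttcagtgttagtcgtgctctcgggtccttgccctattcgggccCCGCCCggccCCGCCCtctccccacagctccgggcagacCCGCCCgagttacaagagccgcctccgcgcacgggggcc
Anxa2: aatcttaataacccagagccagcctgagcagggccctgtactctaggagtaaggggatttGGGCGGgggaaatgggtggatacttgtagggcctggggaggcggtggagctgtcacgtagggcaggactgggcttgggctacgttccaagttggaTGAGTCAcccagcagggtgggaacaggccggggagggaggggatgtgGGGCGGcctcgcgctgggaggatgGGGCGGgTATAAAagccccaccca
Myof: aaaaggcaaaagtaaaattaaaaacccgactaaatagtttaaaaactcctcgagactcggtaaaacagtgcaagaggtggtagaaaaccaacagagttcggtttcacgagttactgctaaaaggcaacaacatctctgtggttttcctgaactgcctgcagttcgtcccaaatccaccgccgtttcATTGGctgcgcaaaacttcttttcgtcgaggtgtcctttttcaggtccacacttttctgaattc
Ahnak held 3 GC boxes, Anxa2 held 3 GC boxes with an AP-1 and a TATA motif, and Myof held a single CCAAT box. No motif was common to all 3 windows. Among all 32851 promoters of the same length, 32.7% held a GC box, 33.8% a CCAAT box, 12.4% a TATA motif, 4.46% an AP-1 motif and 3.25% a TEAD motif. GC content was 66.4% in Ahnak, 62.4% in Anxa2 and 42.8% in Myof, against a median of 52.4% over all promoters. Of the members that were not higher in ureter, Prx held a single CCAAT box, and of the 2 starts listed for Dysf, the first held none of these letters and the second held 3 GC boxes.

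The families and partners of the members were read in the same fit. Their median differences are given beside the median of all genes tested, which was -0.08. Their counts of calls are to be read beside the shares over all genes tested, 21.4% higher in ureter, 23.7% lower and 45.0% in all. A count near these shares says nothing particular about a list. In the S100 family, small calcium-binding proteins to which S100A10 belongs, 12 of 14 tested genes rose in ureter, 1 fell and 1 did not pass, with a median of 2.11. S100a6 rose from a mean of 59.1 CPM in kidney to 2054 CPM in ureter (log2 difference 5.11, standard error 0.185, adjusted p = 1.34e-05, edgeR), and was named after its values were seen. S100a14, also named so, rose from 7.88 to 246 CPM (log2 difference 4.97, standard error 0.139, adjusted p = 6.25e-06, edgeR). S100a5 and S100a3 had the largest fitted differences but were nearly absent from kidney (at most 0.164 and 0.281 CPM) and low in ureter (2.23 and 4.84 CPM for S100a5, 3.42 and 6.59 CPM for S100a3). Without the KO ureter their adjusted p was 0.108 and 0.103. S100g, which encodes the calcium-binding protein calbindin-D9k of calcium-transporting epithelia, was the family's exception, at 257 to 396 CPM in kidney, 0 counts in the WT ureter and 0.370 CPM in the KO ureter (adjusted p = 0.000134, edgeR).

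Of 10 annexins tested besides Anxa2, 8 rose in ureter, 1 fell and 1 did not pass, with a median of 0.92. Anxa8 rose from 0.730 to 1.11 CPM in the kidney libraries to 88.4 and 117 CPM in ureter (log2 difference 6.72, standard error 0.158, adjusted p = 5.07e-06, edgeR). Anxa1, known for limiting inflammation, was at 27.4 to 35.7 CPM in kidney and at 153 and 325 CPM in ureter (log2 difference 2.81, adjusted p = 0.000203, edgeR). Anxa13, an annexin of epithelial apical membranes, fell from 8.23 to 11.4 CPM in kidney to 0.835 and 0.605 CPM in ureter (adjusted p = 0.000224, edgeR). Of the other ferlins, only Otof and Fer1l4 could be tested. Fer1l4 stood at 0.595 to 1.347 CPM in kidney and at 165 and 132 CPM in ureter (log2 difference 7.24, adjusted p = 1.59e-05, edgeR), and Otof had a mean of 0.393 CPM in kidney, 0 counts in both ureter libraries and an adjusted p of 0.122.

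Of 20 genes of the dysferlin complex and membrane repair, 11 rose in ureter, 1 fell and 8 did not pass, with a median of 0.55. The caveolin gene Cav1 rose from 72.9 to 127 CPM in kidney to 808 and 873 CPM in ureter, with a log2 difference of 3.06 (standard error 0.223, adjusted p = 0.000133, edgeR). Of its coat partners, the cavins, which were named after their values were seen, those that the table lists as Ptrf, Sdpr and Prkcdbp rose by 1.78, 2.57 and 1.83 on the log2 scale. The muscle cavin, listed as Murc, averaged 3.12 CPM in kidney and 1.29 CPM in ureter and did not pass the test (log2 difference -1.42, adjusted p = 0.0743, edgeR). The calcium-dependent protease Capn1 rose from 33.3 to 42.6 CPM to 257 and 349 CPM (log2 difference 3.03, adjusted p = 1.40e-05, edgeR). Syt7, a calcium sensor of lysosome fusion, fell from 8.75 to 12.2 CPM to 4.002 and 3.77 CPM (log2 difference -1.42, adjusted p = 0.00235, edgeR). Dysf itself thus fell where 11 genes of its list rose.

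The clients of the annexin A2 and S100A10 complex did not move together. Of 15 tested, 6 rose in ureter, 5 fell and 4 did not pass, with a median of 0.16. Trpv5, the calcium channel of the distal tubule that S100A10 brings to the membrane, was at 6.89 to 15.5 CPM in kidney and had 0 counts in both ureter libraries, at least 106-fold lower (against 3 counts per library, 0.101 CPM in the shallower). The potassium channel gene Kcnk3 was at 1.77 to 3.32 CPM in kidney and at 21.3 and 7.87 CPM in ureter (adjusted p = 0.00530, edgeR, and 0.0511 in the KO libraries alone). In plasmin formation, Plau, the urokinase gene, fell from 158 to 222 CPM in kidney to 23.0 and 22.3 CPM in ureter (log2 difference -3.05, adjusted p = 3.37e-05, edgeR).

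Of 15 tested calcium channel and signalling partners of AHNAK, 2 rose in ureter, 4 fell and 9 did not pass, with a median of -0.07. The calls in both directions together were near the share over all genes tested (45.0%). Cacnb2, the beta subunit best known to bind AHNAK, was at 4.16 to 5.73 CPM in kidney and at 9.01 and 17.1 CPM in ureter (log2 difference 1.33, adjusted p = 0.00870, edgeR), and without the KO ureter its adjusted p was 0.0821. The pore subunit gene Cacna1c was at 13.4 to 20.7 CPM in kidney and 11.6 and 15.4 CPM in ureter (log2 difference -0.35, adjusted p = 0.321, edgeR). Cacna1d fell from 22.3 to 25.4 CPM to 15.6 and 7.16 CPM (adjusted p = 0.0189, edgeR). Cacnb4 was at 17.4 to 25.1 CPM in 3 kidney libraries, at 4.84 CPM in KO kidney 1, and at 2.45 and 2.02 CPM in ureter (adjusted p = 0.0144, edgeR). Without either ureter library Cacnb4 no longer passed the test (adjusted p of 0.0731 and 0.0666), and Cacna1d lost its call without the KO ureter (0.0631). Of the transforming growth factor mediators, Smad2 rose by 0.68 on the log2 scale (adjusted p = 0.00336, edgeR), a call lost with limma on log2(FPKM + 1) (0.35, adjusted p = 0.0814) and on log2(FPKM + 0.1) (0.38, adjusted p = 0.0781), and Smad3 was at 102 to 124 CPM in kidney and 135 and 115 CPM in ureter (adjusted p = 0.183, edgeR).

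Of 16 periaxin partners, 6 rose in ureter, 2 fell and 8 did not pass, with a median of 0.35. Here too the calls in both directions together were near the share over all genes tested (45.0%). Itgb4, the beta subunit of the hemidesmosome integrin, rose from 8.86 to 10.9 CPM in kidney to 118 and 189 CPM in ureter (log2 difference 3.88, adjusted p = 3.89e-05, edgeR). The syntrophin gene Sntb1 rose from 2.003 to 3.51 CPM to 20.2 and 14.3 CPM (adjusted p = 0.000154, edgeR). Dtna fell from 18.6 to 30.04 CPM to 11.4 and 9.31 CPM (adjusted p = 0.00330, edgeR). Several marker lists of other cell types moved with tissue beside all these groups. The summed CPM of 10 fibroblast markers was 2950 to 3694 in kidney and 18303 and 22388 in ureter, that of 10 macrophage markers 119 to 166 and 269 to 415, and that of 14 striated muscle markers 18.8 to 20.7 and 389 to 681. The sum of 10 endothelium markers overlapped between the tissues, at 789 to 959 CPM in kidney and 811 to 887 CPM in ureter. Their part in the tissue differences was not tested.

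**Figure D3:**
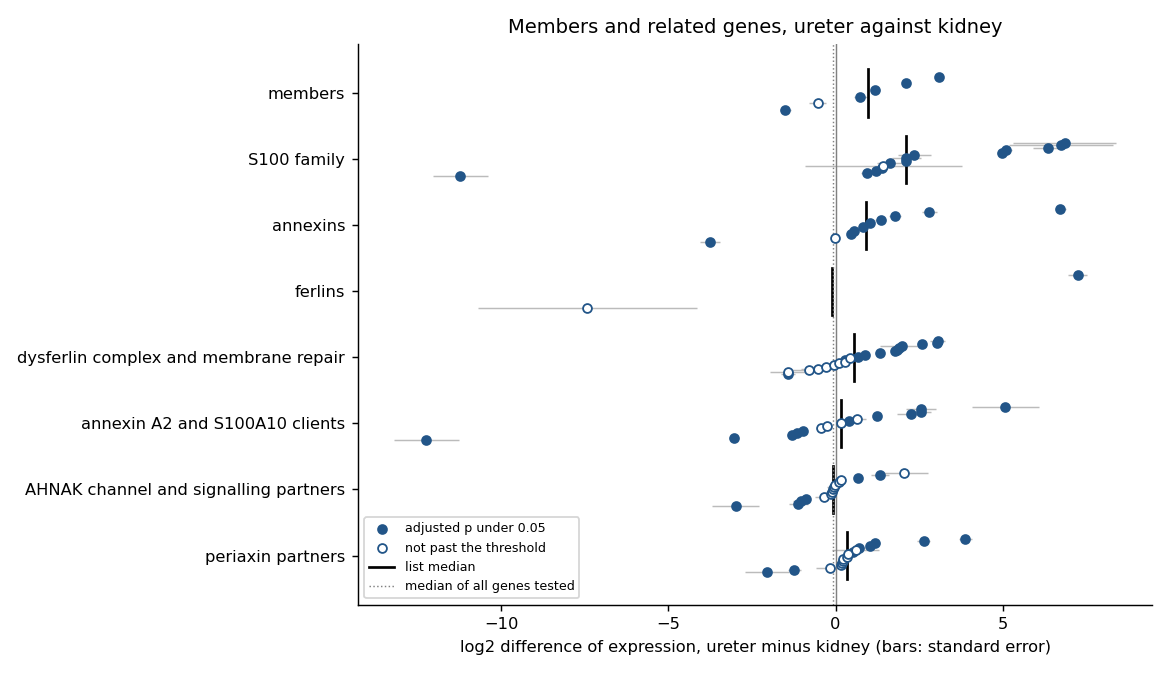
Log2 difference of expression, ureter minus kidney, for the members and each related list, 1 point per tested gene with its standard error, filled where the adjusted p was under 0.05, a black bar for the list median and a dotted line for the median of all genes tested (-0.08). The S100 family and the annexins sit mostly to the right with medians of 2.11 and 0.92, while the partners of AHNAK sit around 0. The values of Trpv5 and Otof, at 0 counts in both ureter libraries, depend on the fit and are no measured folds.

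The genotype comparison in kidney started from Ahnak itself, the targeted gene, in the libraries labelled KO. Ahnak averaged 135 ± 6.18 CPM (SD, n = 2) in the KO kidneys and 186 ± 4.23 CPM (SD, n = 2) in the WT kidneys. Both KO kidneys lay below both WT kidneys, as did 13.5% of all genes. The log2 difference, KO minus WT, was -0.47 (standard error 0.0961, unadjusted p = 0.00265, adjusted p = 0.9999, edgeR), which ranked 40th by p among 16481 genes. Of these genes, 0.0121% were called in either direction (0 higher and 2 lower), and 1.38% had an unadjusted p under 0.05. None of the 6 members was called by edgeR, and 1, Ahnak, had an unadjusted p under 0.05. With DESeq2's Wald test, by contrast, Ahnak passed at an adjusted p of 0.0194. Without KO kidney 1 the log2 difference of Ahnak was -0.51, with an adjusted p of 0.817.

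No other member was called between the KO and WT kidneys, which with n = 2 each does not show that their levels were equal. S100a10 averaged 222 ± 36.2 CPM in KO and 180 ± 28.6 CPM in WT kidneys (SD, n = 2 each), with overlapping values. The other members differed by -0.11 to 0.11 on the log2 scale, with standard errors of 0.0974 to 0.243. Anxa2 and Myof were higher in both KO kidneys than in both WT kidneys, as were 12.8% of all genes, by 0.10 and 0.11 on the log2 scale. Dysf was lower in both, by -0.11. Prx averaged 16.8 ± 2.24 CPM in KO and 15.9 ± 4.66 CPM in WT kidneys (SD, n = 2 each). In none of the related lists was any gene called between the kidney genotypes.

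In ureter there was 1 library per genotype, so the values have no replicate check. S100a10 stood 2.06-fold higher in the KO ureter (474 against 230 CPM, log2 ratio 1.04), Anxa2 1.52-fold higher (1134 against 746 CPM, log2 ratio 0.60) and Myof 1.26-fold higher (730 against 577 CPM, log2 ratio 0.34). Prx was also higher (14.5 against 8.70 CPM, log2 ratio 0.70, from 431 and 448 counts), and Dysf was lower (10.6 against 15.9 CPM, log2 ratio -0.56, from 316 and 821 counts). Of the 6 members, S100a10 was more than 2-fold higher in the KO ureter and none was more than 2-fold lower. The S100a10 ratio fell under 2-fold when scaled by library size alone (log2 ratio 0.84), by FPKM (0.83) and by TPM (0.85). Among 16117 genes compared, 4.86% were more than 2-fold higher and 6.26% more than 2-fold lower. Marker sums also differed between these libraries, with 415 against 269 CPM for macrophage, 3633 against 2227 CPM for collecting duct, 894 against 571 CPM for adipocyte, 22388 against 18303 CPM for fibroblast and 389 against 681 CPM for striated muscle genes in KO against WT. Their part in the member values was not tested.

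Ahnak in ureter depended on the unit. By CPM it was lower in the KO ureter (635 against 727 CPM, log2 ratio -0.19, 95% counting interval -0.22 to -0.17, counting error only). By TPM it was higher (88.0 against 77.5 TPM, log2 ratio 0.18). In kidney it was lower in KO by both units, at 0.723 of WT by CPM and 0.816 by TPM.

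The units differ in the length over which the counts are spread. The quotient of counts and FPKM, scaled within a library, gives a read-weighted length of the transcripts behind a gene. In genes with a single transcript in the table this implied length was 1.023 times the annotated length in the median, within 10% of it for 79.3% of 8932 genes. It varied by under 1.1-fold between libraries in 99.8% of 9175 such genes. With 1 transcript, FPKM divides the count by a fixed length, so this constancy follows from the calculation. It does not show how well the quotient serves genes with several transcripts, such as Ahnak. For Ahnak it was 14651 and 16885 bases in the WT kidneys, 14908 and 12489 bases in the KO kidneys, 16777 bases in the WT ureter and 11295 bases in the KO ureter. The 2 shortest values were those of KO kidney 2 and the KO ureter, while WT kidney 1 lay just below KO kidney 1, so the kidney genotypes overlapped. The 2 longest were those of WT kidney 2 and the WT ureter. Each ureter library shares its column header number with kidney 2 of its genotype, and a shared source of such pairs was not tested. The KO mean was 0.801 of the WT mean (0.869 in kidney and 0.673 in ureter). Of the 14146 genes that reached 10 counts in every library, 10 had a lower ratio, and the spread of Ahnak, 1.49-fold between the highest and the lowest library, exceeded that of 99.5% of them. The median gene varied 1.0018-fold. However, 9175 of these genes had a single transcript in the table, so their implied length was close to fixed by the calculation. These ranks are therefore mostly against genes that could hardly vary, and genes with several transcripts were not ranked apart. Leaving out each library in turn moved the KO to WT ratio of Ahnak between 0.738 and 0.851, lowest without KO kidney 1.

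Read as a mix of the long transcript Ahnak-202 and the short Ahnak-201 alone, these lengths placed 98.9% and 99.7% of the Ahnak reads on the long transcript in the WT kidneys, 99.0% and 97.8% in the KO kidneys, 99.6% in the WT ureter and 97.1% in the KO ureter. On that reading, reads of the long transcript stood at 0.717 of WT in KO kidney and 0.851 in KO ureter, and those of the short transcript at 6.67 times WT in KO ureter (18.4 against 2.76 CPM). In kidney the short transcript came to 2.08 and 0.655 CPM in WT and 1.43 and 2.81 CPM in KO, so the genotypes overlapped. With Ahnak-205 (1188 bases) in place of Ahnak-201, the share on the long transcript was 95.8% to 99.5%. Such shares depend on the authors' transcript models and on the choice of the 2 transcripts, and the junction reads that would count them directly were not analysed here.

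The other members varied less in implied length than Ahnak. S100a10 and Anxa2 varied by under 1.001-fold between libraries, and Myof by 1.003-fold. Dysf was at 6823 to 6827 bases in kidney and 7016 and 7017 bases in ureter. Prx was at 4808 to 4924 bases in 5 libraries and at 5383 bases in the KO ureter.

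**Figure D4:**
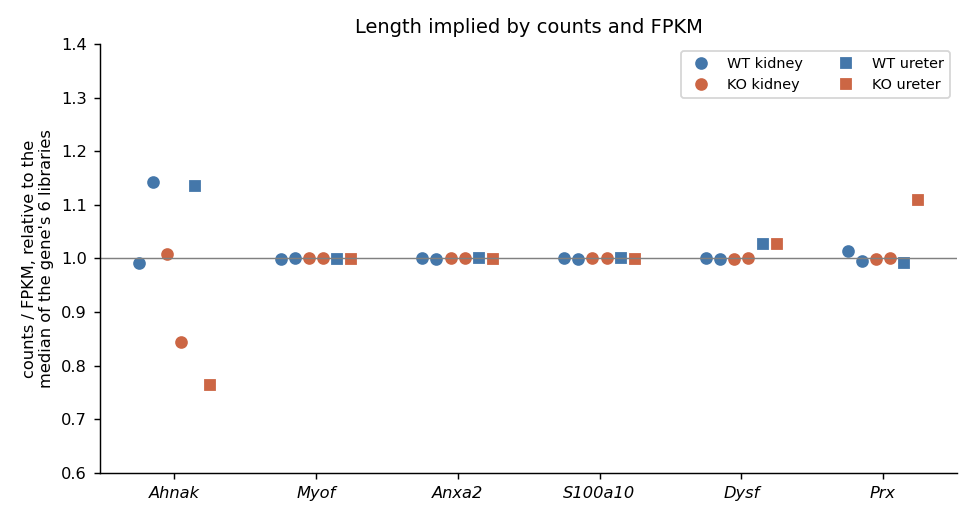
Length implied by the quotient of counts and FPKM for each member and library, relative to the median of the gene's 6 libraries, circles for kidney and squares for ureter, blue for WT and orange for KO. Ahnak spreads 1.49-fold with KO kidney 2 and the KO ureter lowest, Prx stands apart in the KO ureter, Dysf is slightly longer in both ureters, and the other 3 members lie on the line.

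Over both tissues together, the genotype term of the fit of all 6 libraries called none of the 6 members and 0.0% of 16873 genes (3.51% had an unadjusted p under 0.05, and DESeq2 called 13 higher and 5 lower). Ahnak had a log2 difference of -0.38 (standard error 0.0980, unadjusted p = 0.00746, adjusted p = 0.882, edgeR) and S100a10 of 0.55 (standard error 0.194, unadjusted p = 0.0279, adjusted p = 0.882, edgeR). By CPM, Ahnak and Dysf were lower in KO in both tissues without overlap in kidney, a pattern shared by 7.88% of genes. Anxa2 and Myof were higher in the same way, as were 7.49%. By TPM, Ahnak was higher in the KO than in the WT ureter (88.0 against 77.5 TPM, 1 library each).

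The test of whether the genotype difference itself differed between ureter and kidney called 0.108% of 17557 genes (0.0513% with a larger and 0.057% with a smaller KO minus WT difference in ureter) and none of the members, and 12.4% had an unadjusted p under 0.05. The largest member terms were 0.73 for S100a10 (standard error 0.295, unadjusted p = 0.0481, adjusted p = 0.398, edgeR), 0.65 for Prx (standard error 0.439, unadjusted p = 0.192, adjusted p = 0.620, edgeR) and 0.50 for Anxa2 (standard error 0.162, unadjusted p = 0.0216, adjusted p = 0.305, edgeR), all toward a larger KO minus WT difference in ureter. The term of Ahnak was 0.27 (standard error 0.173, adjusted p = 0.602, edgeR). In this fit the ureter libraries are assumed to vary like the kidney libraries.

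**Figure D5:**
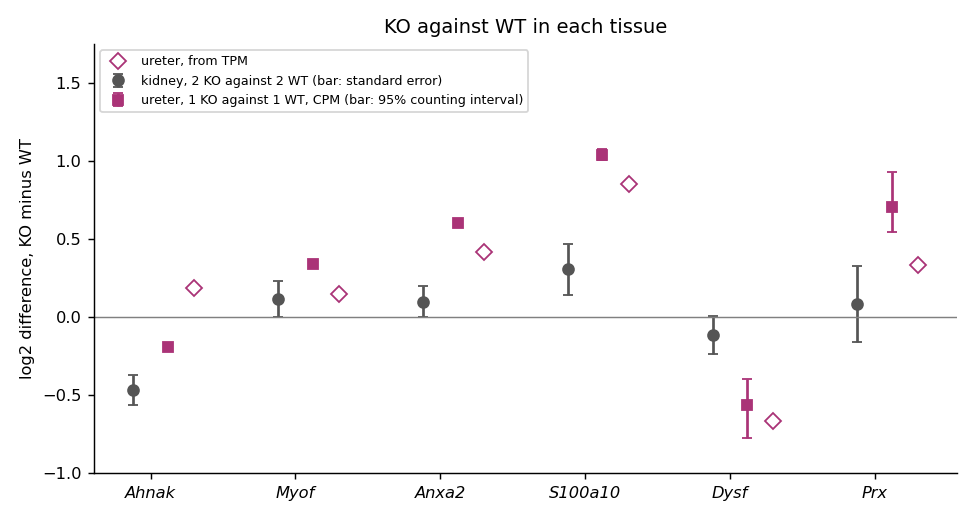
Log2 difference, KO minus WT, for each member in kidney (grey circles, edgeR with standard error, 2 against 2 libraries) and ureter (purple squares from CPM with 95% counting intervals, open diamonds from TPM, 1 against 1 library). Ahnak is lowest in kidney at -0.47, S100a10 is highest in ureter at 1.04, and the ureter values of Ahnak lie on both sides of 0 depending on the unit.

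The genes whose profile over the 6 libraries was most like that of Ahnak, by the root mean square difference of centred log2(CPM + 0.5) among 11141 genes with a mean of at least 10 CPM, were 3632451O06Rik (0.0944), Adssl1 (0.114), Sh3tc2 (0.134), Paqr5 (0.155) and Alpk1 (0.163). Each was higher in both ureters than in any kidney and lower in both KO kidneys than in both WT kidneys, which follows from their choice by likeness to Ahnak. Paqr5, for example, was at 54.0 and 51.2 CPM in the WT kidneys, 46.3 and 47.3 CPM in the KO kidneys, 266 CPM in the WT ureter and 212 CPM in the KO ureter. In every kidney library 3632451O06Rik (6.20 to 8.94 CPM) and Alpk1 (4.93 to 7.35 CPM) lay under 10 CPM. They reached the minimum mean only through their ureter values. Adssl1 was at 7.06 to 10.6 CPM in kidney. The binding partners were less alike, with Anxa2 at rank 721 (0.543), Myof at 727 (0.545) and S100a10 at 2240 (0.815), and Prx and Dysf at 8940 and 10441. The closest pair among the members was S100a10 with Anxa2 (0.282), and the farthest was Dysf with Myof (2.16).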

How the data were processed

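The authors deposited a table of 24532 genes with, for each of 6 libraries, an estimated count given as a whole number, an FPKM and a TPM value, both of the latter normalized by the authors. The study's methods name Cutadapt, STAR and Cufflinks with GRCm39, whereas the submitters' processing notes list FastQC 0.11.7, Trimmomatic 0.38, HISAT2 2.1.0, StringTie 1.3.4b and mm10. Which of them made the deposited counts is not settled here. Both programs estimate how reads divide among transcripts, which bears on FPKM and TPM of genes with transcripts of unequal length, such as Ahnak.

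Counts were tested as deposited with edgeR 4.0.16 in R 4.3.3 (filterByExpr, TMM factors of 0.817 to 1.08, quasi-likelihood test, Benjamini-Hochberg adjustment over all genes tested), although this test was meant for counts of whole reads rather than estimates. The tissue test used all 6 libraries with genotype as a term, and the kidney genotype test used the 4 kidney libraries. Standard errors were taken as the size of the log2 difference over the root of its F statistic. A threshold of 0.05 on the adjusted p was used. The ureter genotypes were compared by log2(CPM + 0.5) with no test and an exact counting interval. Implied length is the quotient of counts and FPKM, scaled to a common median per library, in genes with at least 10 counts in every library. Intervals and limits of 3 counts cover counting error only. Alternatives used DESeq2 1.42.0, limma 3.58.1 on log2(FPKM + 1) and log2(FPKM + 0.1), other scaling, no filter, and fewer libraries. On simulated counts of 16481 genes for the kidney genotype test, 90.5% of the genes given a 2-fold change were recovered at a dispersion of 0.01 and 12.5% at 0.05. For the tissue test with 16873 genes the shares were 91% and 35.5%. The common dispersion fitted to the data was 0.0540 in the kidney genotype test and 0.0724 in the tissue test. Both lie above the higher simulated dispersion of 0.05. Libraries were compared pairwise and none were identical.

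The members and gene lists were chosen with earlier results of these data known. Named genes are the members, from each list the 2 largest called differences in each direction between tissues with a mean of at least 1 CPM, 4 partners fixed beforehand (Cacnb2, Cacna1c, Trpv5, Smad3) and the 5 genes most like Ahnak. Some genes that this rule names are not reported here. Marker lists not given elsewhere were podocyte (989 to 1172 CPM in kidney, 302 and 323 CPM in ureter) and nephron progenitor (697 to 758 CPM in kidney, 112 to 139 CPM in ureter). No protein sequences were used here.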

Additional observations from a re-analysis of the deposited data

Results flagged for a closer look

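Ahnak moved in opposite directions with genotype in the 2 tissues when its level was taken per length. By TPM both libraries labelled KO lay below both WT libraries in kidney (KO mean over WT mean 0.816), while the KO library lay above the WT library in ureter (KO over WT 1.14). The difference was not tested on TPM. By CPM the direction was lower in KO in both tissues, and the interaction of genotype and tissue on counts was 0.27 with an adjusted p of 0.602 in edgeR. Groups held at most 2 libraries, so no group could be searched for an outlying library.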

How the results depend on the processing

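In the tissue comparison, scaling by library size alone shifted the median of all genes from -0.08 to -0.36 (log2) and gave 2371 genes higher and 6108 lower in ureter, so that 28.0% of calls were higher instead of 47.4%. Limma called 6360 lower on log2(FPKM + 1) and 6557 on log2(FPKM + 0.1). Leaving out each library gave 2448 to 3320 higher and 2710 to 3573 lower, and 4 to 5 members called. Of 90 alternative values of the members, 80 kept direction and side of the threshold, 7 lost the call (all S100a10) and 3 gained it (all Prx). Ahnak ranged from 1.80 to 2.23, with the highest adjusted p at 0.000739, Myof from 2.68 to 3.19, Anxa2 from 0.88 to 1.44 and Dysf from -1.78 to -1.27, all called under each alternative. Of 360 alternative values of the other named genes, 340 kept direction and side of the threshold, 17 lost the call and 3 reversed. The reversals were those of Smad3, to -0.11 under library size alone, and to -0.12 under both limma settings.

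In kidney genotypes, DESeq2 called 25 higher and 19 lower, among them 1 member (Ahnak), and both limma settings called 0 lower. Without single libraries 1 to 24 were higher and 2 to 63 lower, most without KO kidney 2 (24 and 63) and KO kidney 1 (22 and 24), and no member was called. Without single libraries Prx ranged from -0.19 to 0.42, reversed at -0.19 without WT kidney 2 and at -0.07 without KO kidney 2. The labels do not say whether the replicate numbers pair these mice, and 2 pairs cannot settle it. Deviations of same-numbered libraries correlated at -0.19, and the replicate block called 0 genes and the crossed replicate block, added after seeing the data, 1 lower, with no member called in either. For both tissues together DESeq2 called 13 higher and 5 lower, and leaving out each library gave 0 higher and 0 to 2 lower. For the interaction, DESeq2 called 198 higher and 278 lower, both limma settings 0, and library size alone 17 lower. Leaving out each kidney library gave 2 to 145 higher and 2 to 125 lower, most without KO kidney 2 (145 and 125) and KO kidney 1 (78 and 75), with no member called. In ureter, FPKM gave 334 genes over 2-fold higher, and a pseudocount of 0.1 gave 1644 lower. Ahnak reversed to 0.16 by FPKM and 0.18 by TPM. TMM factors without Rn45s, added after seeing the data, gave 780 higher and 1017 lower. The implied length ratio of Ahnak was 0.803 scaled by library total and 0.801 with at least 100 counts, and 0.738 to 0.851 without single libraries (added after seeing the data). Beyond what is said, the cause was not tested. Genotype differences under 2-fold were not simulated, so how many of them this number of libraries would recover is not known.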

Other observations

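Dysf and Prx also carried shifts in implied length that did not follow the pattern of Ahnak. For Dysf, which has 2 listed starts, the ureter libraries (7016 and 7017 bases) lay above all 4 kidney libraries (6823 to 6827 bases) in both genotypes. Over 14146 genes, 9.32% had both ureter libraries above all kidney libraries and 8.31% below, and 1.86% were at least as far above as Dysf. For Prx, which is annotated with 4 transcripts, 5 libraries lay between 4808 and 4924 bases and the KO ureter at 5383 bases, from 431 counts.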
